A study of Mus musculus with 8 samples.

Results

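The respiratory chain of mouse macrophages is built from nuclear and mitochondrial genes, and the members described here are its nuclear genes. They were chosen by a rule on gene symbols, set with earlier results of these data known. It took symbols beginning with Ndufa, Ndufb, Ndufc, Ndufs or Ndufv, and the symbols Sdha, Sdhb, Sdhc and Sdhd. It also took symbols beginning with Uqcr, with Cox followed by a digit from 4 to 8, or with Atp5. The 9 symbols that carry the pseudogene suffix -ps were left out. The rule found 98 genes of the 55401 in the count table. By symbol, 41 of these were placed under complex I and 8 under the Ndufaf assembly factors of complex I. Complex II held 4, complex III 8, complex IV 19 and complex V (ATP synthase) 18. Grouping by symbol places Ndufa4 and Ndufa4l2 under complex I, although Ndufa4 is now regarded as a subunit of complex IV, and leaves out Cyc1, the cytochrome c1 of complex III.

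The libraries are RNA-seq of macrophages grown in culture from mouse bone marrow. The study compared 4 groups with 2 libraries each: KO (Lyz2-Cre-Mettl3fl/fl) stimulated, KO with PBS, WT (Mettl3fl/fl) stimulated and WT with PBS. Stimulation was an overnight exposure to LPS at 50 ng/ml with nigericin at 10 µM. The nigericin step lasted 3 h in the sample labels and either 1 h or 3 h in the design text of the series. Mettl3 encodes the catalytic subunit of the writer of N6-methyladenosine on mRNA, and both genotypes carry the floxed alleles. Cre under the myeloid Lyz2 promoter was present in the KO groups alone, so effects of Cre and of the deletion cannot be told apart, nor can those of LPS and nigericin. The labels do not say whether both libraries of a group are separate animals or cultures. The p-values therefore cover the spread between 2 libraries, and that spread may be technical.

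Electrons from NADH enter the chain at complex I and those from succinate at complex II. Both pass them through ubiquinone to complex III, then through cytochrome c to complex IV, where oxygen is reduced. Complexes I, III and IV pump protons across the inner mitochondrial membrane, and complex V lets them flow back to make ATP. Macrophages activated by LPS are known to shift toward glycolysis and to use mitochondria as a source of succinate, itaconate and reactive oxygen species.

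Libraries held 55032057 to 65487739 counts. Mettl3 had 9.08 and 7.87 CPM (counts scaled to a common effective library size) in stimulated KO and 5.63 and 6.33 in KO with PBS, against 28.2 and 23.4 in stimulated WT and 13.6 and 13.3 in WT with PBS. It was lower in KO by a log2 fold change of -1.61 ± 0.14 SE after stimulation (adjusted p = 0.00283) and -1.17 ± 0.14 with PBS (adjusted p = 0.0143, lost without either KO PBS or either WT PBS library, up to 0.0805). The count is of the whole gene, so RNA without the floxed part is included. All 6 macrophage markers were detected, with summed levels of 10778.5 to 11231.5 CPM in stimulated KO, 9191.3 to 9607.8 in KO with PBS, 12313.5 to 12745.0 in stimulated WT and 8316.1 to 8707.8 in WT with PBS. They did not move alike with stimulation, as 2 rose and 3 fell in KO, and 3 rose and 2 fell in WT. Over all tested genes 20.2% were higher and 19.0% lower in KO, and 20.6% higher and 20% lower in WT. Summed levels of 7 fibroblast markers, none at 0, were 319.6 to 357.2 CPM in stimulated KO, 264.4 to 281.9 in KO with PBS, 124.4 to 127.8 in stimulated WT and 170.0 to 189.6 in WT with PBS. Of the 7, 6 were called higher in KO than in WT after stimulation, where 2.91% of all genes were. With PBS 2 were, where 1.2% of all genes were. With stimulation 4 rose and 0 fell in KO, while 1 rose and 4 fell in WT. The 8 neutrophil markers summed to 30.4 to 33.5 CPM in stimulated KO, 5.6 to 5.89 in KO with PBS, 28.1 to 35.4 in stimulated WT and 3.9 to 3.96 in WT with PBS, with Ly6g and Retnlg at 0 throughout. Only 5 of them were tested, and in each genotype 2 rose with stimulation and 3 had no call. Their median log2 fold change was 0.21 in KO and 0.28 in WT, so the sums do not describe the whole list. The 6 B and plasma cell markers summed to 3.58 to 3.62 CPM in stimulated KO, 2.4 to 2.49 in KO with PBS, 0.723 to 0.8 in stimulated WT and 0.414 to 0.557 in WT with PBS. Markers of T and NK cells, erythroid cells, dendritic cells and mast cells summed to at most 1.52 CPM in any library. The 4 nuclear-retained transcripts summed to 456.9 to 474.1 CPM in stimulated KO, 544.1 to 649.0 in KO with PBS, 396.8 to 812.0 in stimulated WT and 712.0 to 901.6 in WT with PBS. The part of these other cells and of RNA quality in the results below was not tested.

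Of the 98 members, 92 passed the filter on low counts. Cox7b2, Cox8b, Cox8c, Ndufa11b and a second identifier of Atp5o had 0 counts in all 8 libraries. Cox4i2, the hypoxia-responsive isoform of subunit 4, had 4 and 6 counts in stimulated KO, 0 in both KO PBS libraries, 0 and 8 in stimulated WT and 0 in both WT PBS libraries, and was not tested. The 92 tested members had a median level of 56.5 CPM, against 9.61 CPM over all 17470 tested genes, and lay on 19 chromosomes. Their mean levels ran from 0.276 to 527.3 CPM, and 9 of them averaged under 5 CPM. Per kilobase of exon, the most abundant members of complexes I to V were Ndufa2, Sdhd, Uqcr10, Cox6b1 and Atp5a1. Ndufb4c, Ndufs6b, Cox6c2 and the uncounted Ndufa11b are annotated as processed pseudogenes and stand under complexes I and IV by symbol alone. Reads of such genes could be split with the parent genes, and 33 members share exon bases with another gene of the table.

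The first question was what stimulation did to these mRNAs. Genes of all 5 complexes rose in both genotypes. In stimulated KO macrophages 66 of the 92 members rose and 0 fell against KO with PBS, by edgeR's quasi-likelihood test with Benjamini-Hochberg adjustment over all tested genes. Over all tested genes 39.1% were called, 20.2% higher and 19.0% lower. At an unadjusted p under 0.05 again 0 members were lower, where 4076 of all 17470 tested genes were. DESeq2 and limma-voom also called 0 lower, where they called 20.1% and 19.7% of all genes lower. In stimulated WT macrophages 62 members rose and 1 fell, where 40.5% of all genes were called, 20.6% higher and 20% lower. The members' median log2 fold change was 0.59 in KO and 0.55 in WT, where all tested genes had medians of -0.03 and -0.01. With a filter of at least 5 CPM in 2 libraries, which leaves genes nearer to the members in level, 65 of 84 members rose and 0 fell in KO, where 28.5% of all genes were higher and 27.1% lower. In WT 60 rose and 1 fell (Ndufb11), where 27.9% were higher and 28.1% lower. The filter also admits a gene through its stimulated libraries alone, as for Cox6a2, so part of each higher share was set by the filter. Here and below, whether a change in a bulk sample comes from more RNA per cell or from another mix of cells cannot be told apart.

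Summed over the 92 members, the mRNA level was 8126.9 and 8174.8 CPM in stimulated KO, 5680.2 and 5638.8 in KO with PBS, 7918.5 and 9000.5 in stimulated WT and 5668.3 and 5830.8 in WT with PBS. Every stimulated library lay above every PBS library, and the genotypes overlapped within each treatment. As a share of all counts the members made up 0.812 and 0.822% in stimulated KO, 0.606 and 0.592% in KO with PBS, 0.739 and 0.799% in stimulated WT and 0.592 and 0.598% in WT with PBS.

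**Figure D1:**
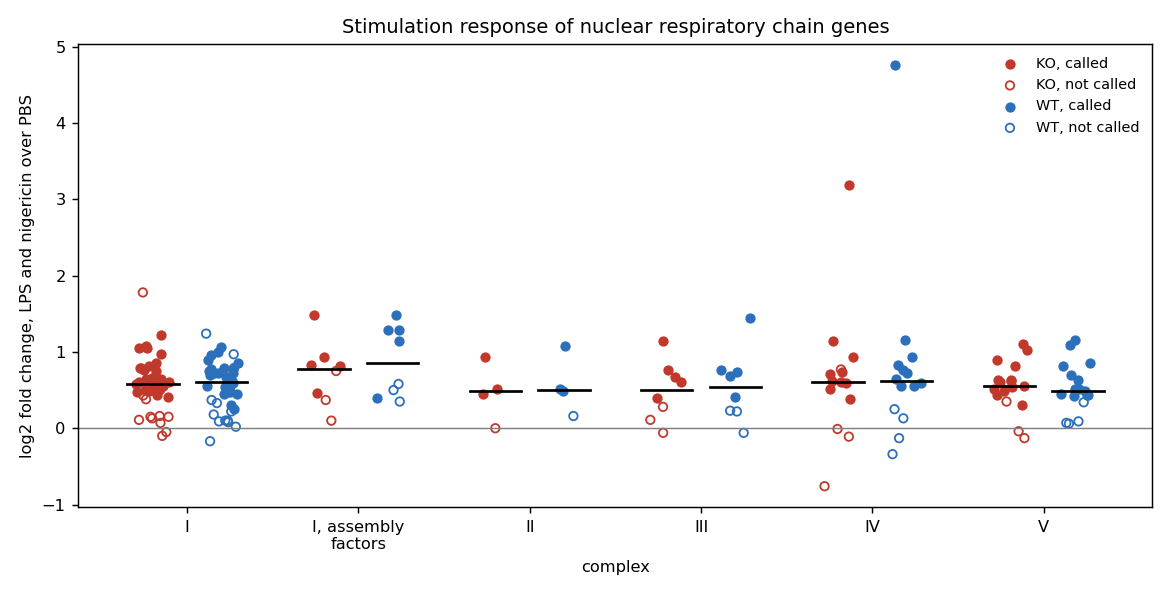
Log2 fold change of stimulated over PBS libraries for each tested member, by complex (horizontal axis), in KO (red, left) and WT (blue, right). Filled points passed the adjusted threshold, open points did not, and black bars are medians, which lie between 0.49 and 0.86. Cox6b2 is left out because stimulated WT libraries had no counts of it.

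Complex I had 29 of its 40 tested members risen in KO and 26 in WT, with median log2 fold changes of 0.59 and 0.61. Its 7 core subunits, which carry the flavin, the iron-sulfur clusters and the quinone site of the peripheral arm, did not move alike. Ndufs3, Ndufs7, Ndufs8 and Ndufv2 rose in both genotypes, although Ndufs8 lost its call without the first stimulated KO or either KO PBS library in KO (adjusted p up to 0.107) and without any 1 of the KO PBS, stimulated WT or WT PBS libraries in WT (up to 0.166). Ndufv1, which binds NADH and the flavin, had 40.9 and 48.4 CPM in stimulated KO, 28.9 and 30.5 in KO with PBS, 39.2 and 42.1 in stimulated WT and 31.3 and 38.5 in WT with PBS. The stimulated libraries of each genotype lay above its PBS libraries, and the rise passed the threshold in KO (0.59 ± 0.13 SE, adjusted p = 0.0111) and not in WT (0.22 ± 0.13, adjusted p = 0.225), with a difference of responses of 0.37 ± 0.18 (adjusted p = 0.542). The call in KO was lost without the second stimulated or the first PBS library of KO (up to 0.072). Ndufs1, the large iron-sulfur subunit, had 69.2 and 72.5 CPM in stimulated KO, 64.1 and 63.0 in KO with PBS, 68.6 and 66.8 in stimulated WT and 64.6 and 61.4 in WT with PBS. Ndufs1 did not pass the threshold in KO (0.16 ± 0.07, adjusted p = 0.117) or in WT (0.10 ± 0.07, adjusted p = 0.274). It is named here after its values were seen, as are other members without a call below.

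Among the accessory subunits of complex I, Ndufb3 of the membrane arm had 53.8 and 52.0 CPM in stimulated KO, 25 and 25.1 in KO with PBS, 42.8 and 44.7 in stimulated WT and 20.9 and 24.1 in WT with PBS. It rose by 1.08 ± 0.09 log2 units in KO (adjusted p = 0.000135) and 0.96 ± 0.09 in WT (adjusted p = 0.000237). Ndufs4, needed for a stable NADH-binding module, had 46.9 and 48.4 CPM in stimulated KO, 27.8 and 26.5 in KO with PBS, 46.8 and 52.1 in stimulated WT and 22.7 and 24.7 in WT with PBS. Stimulated libraries of both genes lay above PBS libraries without overlap, and Ndufs4 rose by 0.81 ± 0.09 and 1.06 ± 0.09 (adjusted p = 0.000493 and 0.000138). Ndufs6, a zinc-binding accessory subunit, rose by 0.79 ± 0.12 in KO and 1.00 ± 0.12 in WT, and Ndufs5 by 1.05 ± 0.13 and 0.79 ± 0.13. Ndufa5 of the peripheral arm had 34.8 and 33.6 CPM in stimulated KO, 12.6 and 16.7 in KO with PBS, 20.9 and 31.8 in stimulated WT and 11.9 and 18.6 in WT with PBS. Its stimulated WT libraries stood apart from each other, and it passed the threshold in KO (1.22 ± 0.28, adjusted p = 0.0119) and not in WT (0.79 ± 0.27, adjusted p = 0.0582). The call was lost without the first stimulated or the first PBS library of KO (up to 0.0758).

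Members of complex I without a call in either genotype included Ndufa4, Ndufa4l2, Ndufa6, Ndufb4c, Ndufb5, Ndufb11, Ndufs1, Ndufs6b and Ndufv3. Ndufa4 had 73.0 and 72.0 CPM in stimulated KO, 77.1 and 73.3 in KO with PBS, 66.9 and 79.5 in stimulated WT and 67.2 and 77.7 in WT with PBS. Its paralog Ndufa4l2, known as a target of hypoxia-inducible factor, had 0.597 and 0.67 CPM in stimulated KO, 0.238 and 0.128 in KO with PBS, 0.218 and 0.361 in stimulated WT and 0.123 and 0.12 in WT with PBS. Stimulated libraries of Ndufa4l2 were higher in both genotypes, at levels under 1 CPM, and neither fold change passed (1.78 ± 0.60 in KO, adjusted p = 0.0516, and 1.24 ± 0.62 in WT, adjusted p = 0.152). Ndufb11, a membrane-arm subunit, had a fold change of -0.10 ± 0.08 in KO and -0.17 ± 0.08 in WT, without a call.

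The assembly factors of complex I act on unfinished subcomplexes and are not part of the mature enzyme. In each genotype 5 of the 8 rose, with medians of 0.78 in KO and 0.86 in WT. The call of Ndufaf1 was lost in WT in all 8 fits that left out 1 library (adjusted p up to 0.198), and in KO without the first stimulated or either PBS library of KO (up to 0.138). Ndufaf3, which acts early in building the quinone module, had 20.7 and 24.9 CPM in stimulated KO, 8.58 and 7.72 in KO with PBS, 20 and 29 in stimulated WT and 9.73 and 10.3 in WT with PBS. It rose by 1.49 ± 0.19 in KO (adjusted p = 0.00101) and 1.29 ± 0.19 in WT (adjusted p = 0.00184), without overlap of stimulated and PBS libraries. Ndufaf4, the partner of Ndufaf3, had 7.58 and 8.22 CPM in stimulated KO, 5.36 and 4.05 in KO with PBS, 15.7 and 16.8 in stimulated WT and 8.98 and 4.27 in WT with PBS. Its levels in stimulated WT lay above those of all other libraries, and its WT PBS libraries were far apart, with the first above both stimulated KO libraries. It passed in WT (1.29 ± 0.33, adjusted p = 0.0187), a call lost without either stimulated WT library (adjusted p up to 0.0757), and not in KO (0.75 ± 0.33, adjusted p = 0.119). Ndufaf5, which in human cells hydroxylates an arginine of the Ndufs7 protein, rose by 0.94 ± 0.14 in KO and 1.14 ± 0.14 in WT. Ndufaf6 rose by 0.81 ± 0.22 in KO, a call lost without any 1 of the 4 KO libraries (adjusted p up to 0.132), and by 1.48 ± 0.23 in WT. Ndufaf7, a mitochondrial methyltransferase, rose by 0.83 ± 0.15 in KO and was at 0.35 ± 0.15 in WT (adjusted p = 0.0964).

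In complex II, which is also succinate dehydrogenase of the tricarboxylic acid cycle, the subunits parted. Sdhb, the iron-sulfur subunit, had 191.5 and 190.8 CPM in stimulated KO, 97.5 and 101.5 in KO with PBS, 208.8 and 238.7 in stimulated WT and 102.2 and 109.0 in WT with PBS. It rose by 0.94 ± 0.08 in KO (adjusted p = 0.000154) and 1.08 ± 0.08 in WT (adjusted p = 7.89e-05). Sdha, the flavoprotein that oxidizes succinate and the direct partner of Sdhb, had 225.0 and 229.3 CPM in stimulated KO, 222.7 and 231.3 in KO with PBS, 242.8 and 250.9 in stimulated WT and 223.7 and 218.9 in WT with PBS. Sdhb libraries were separated by treatment in both genotypes, while Sdha overlapped in KO and was slightly higher in both stimulated WT libraries. The fold change of Sdha was 0.00 ± 0.06 in KO (adjusted p = 0.993) and 0.16 ± 0.06 in WT (adjusted p = 0.0698). The membrane anchors Sdhc and Sdhd rose by 0.45 ± 0.07 and 0.52 ± 0.09 in KO and by 0.51 ± 0.07 and 0.49 ± 0.09 in WT. In CPM per kilobase of exon, the mean level of Sdhb was 85.4 in stimulated KO, 44.5 in KO with PBS, 99.9 in stimulated WT and 47.2 in WT with PBS, and that of Sdha 55.1, 55, 59.8 and 53.6 in the same groups.

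The promoters of members that rose and of members without a call are shown to let these be compared with the response. RefSeq windows (GRCm38.p6, 250 bases before to 50 after the start) were found for 76 members in 81 windows. They were searched on both strands for GCATGCGC (the core of the NRF1 site), CCGGAAG (bound by ETS factors such as GABP) and AAGATGGC (YY1), factors long linked to genes of the respiratory chain. Capitals mark matches of these letters, of their reverse complements GCGCATGC, CTTCCGG and GCCATCTT, overlapping NRF1 matches included.
Sdhb (risen in both genotypes, with the NRF1 core and the ETS letters, chr4:140961021-140961320, plus strand): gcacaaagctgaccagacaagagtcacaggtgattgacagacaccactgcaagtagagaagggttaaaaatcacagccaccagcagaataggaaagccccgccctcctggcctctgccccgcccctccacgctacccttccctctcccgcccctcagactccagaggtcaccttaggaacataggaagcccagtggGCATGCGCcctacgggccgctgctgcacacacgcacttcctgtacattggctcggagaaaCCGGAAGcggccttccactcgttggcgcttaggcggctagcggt
Cox6a1 (risen in both genotypes, with both NRF1 orientations and the ETS letters, chr5:115348909-115349208, minus strand): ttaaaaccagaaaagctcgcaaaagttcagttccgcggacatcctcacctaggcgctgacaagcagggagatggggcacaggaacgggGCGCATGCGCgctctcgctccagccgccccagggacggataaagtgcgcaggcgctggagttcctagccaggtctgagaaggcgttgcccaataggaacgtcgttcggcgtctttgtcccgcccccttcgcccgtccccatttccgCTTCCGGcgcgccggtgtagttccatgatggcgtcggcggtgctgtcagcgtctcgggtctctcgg
Ndufs4 (risen in both genotypes, with the YY1 letters, chr13:114388045-114388344, minus strand): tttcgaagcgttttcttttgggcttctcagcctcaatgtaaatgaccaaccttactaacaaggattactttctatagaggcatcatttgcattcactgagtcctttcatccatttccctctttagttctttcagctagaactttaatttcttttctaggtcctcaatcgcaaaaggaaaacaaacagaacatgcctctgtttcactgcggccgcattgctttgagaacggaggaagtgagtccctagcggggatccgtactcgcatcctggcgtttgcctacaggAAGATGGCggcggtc
Sdha (no call, no match, chr13:74350191-74350490, minus strand): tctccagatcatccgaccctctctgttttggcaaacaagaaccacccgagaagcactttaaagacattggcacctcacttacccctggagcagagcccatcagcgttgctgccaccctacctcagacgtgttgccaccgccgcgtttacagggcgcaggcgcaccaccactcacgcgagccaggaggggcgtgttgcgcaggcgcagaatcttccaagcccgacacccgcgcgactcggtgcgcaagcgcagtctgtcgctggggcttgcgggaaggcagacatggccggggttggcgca
Atp5g2 (no call, with both NRF1 orientations, chr15:102670998-102671297, minus strand): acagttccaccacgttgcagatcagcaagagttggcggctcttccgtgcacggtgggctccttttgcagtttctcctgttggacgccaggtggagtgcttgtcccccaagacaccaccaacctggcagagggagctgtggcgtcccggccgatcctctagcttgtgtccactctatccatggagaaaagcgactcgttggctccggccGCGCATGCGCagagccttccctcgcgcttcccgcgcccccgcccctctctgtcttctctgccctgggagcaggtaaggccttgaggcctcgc
The NRF1 core occurred in 14.81% of the members' windows and in 2.71% of all 32851 windows of the table, the ETS letters in 22.22 and 8.86%, and the YY1 letters in 13.58 and 2.75%. At least 1 of the 3 was present for 27 of 50 members risen in both genotypes (54.0%), 5 of 15 without a call (33.3%) and 2 of 9 others (22.2%). That share was not computed over all windows, and a link of the letters with the response was not tested. Atp5g2, Ndufa6 and Uqcr11 carried the NRF1 core without a call, and Atp5b and Uqcr10 rose with none of the 3. A match is a description of the letters and not evidence of binding, and a missing match says only that these letters are not in the window.

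In complex III 5 of 8 members rose in each genotype, with medians of 0.51 in KO and 0.55 in WT. Uqcrq, a small supernumerary subunit, had 138.3 and 129.6 CPM in stimulated KO, 58.8 and 62.9 in KO with PBS, 123.8 and 142.6 in stimulated WT and 46.4 and 51.2 in WT with PBS. It rose by 1.14 ± 0.10 in KO (adjusted p = 0.000136) and 1.45 ± 0.10 in WT (adjusted p = 4.53e-05). Stimulated and PBS libraries did not overlap, and with PBS both KO libraries lay above both WT libraries (0.32, adjusted p = 0.193). The core proteins Uqcrc1 and Uqcrc2 rose by 0.40 ± 0.08 and 0.67 ± 0.08 in KO and by 0.41 ± 0.08 and 0.76 ± 0.08 in WT, where Uqcrc1 lost its call without the first stimulated KO library in KO (adjusted p = 0.0697) and without the first WT PBS library in WT (0.0561). Uqcrb rose by 0.76 ± 0.07 and 0.68 ± 0.07, and Uqcr10 by 0.61 ± 0.07 and 0.74 ± 0.07. Uqcrfs1, the Rieske iron-sulfur protein, had 97.5 and 96.1 CPM in stimulated KO, 75.8 and 84.1 in KO with PBS, 71.5 and 83.7 in stimulated WT and 65.2 and 67.8 in WT with PBS. The stimulated libraries lay above the PBS libraries in each genotype, and neither fold change passed (0.28 ± 0.10 in KO, adjusted p = 0.0611, and 0.22 ± 0.10 in WT, adjusted p = 0.112). Uqcrh, the hinge protein that docks cytochrome c1, was at -0.06 ± 0.10 in both genotypes.

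Complex IV had 10 of 15 tested members risen in each genotype, with medians of 0.60 in KO and 0.59 in WT. Cox5a, a matrix-side subunit, had 164.0 and 157.9 CPM in stimulated KO, 82.8 and 85.4 in KO with PBS, 156.0 and 181.8 in stimulated WT and 75.1 and 77.5 in WT with PBS. Its libraries were separated by treatment, with rises of 0.94 ± 0.09 in KO (adjusted p = 0.000196) and 1.15 ± 0.09 in WT (adjusted p = 7.52e-05). Its matrix-side companion Cox5b rose by 0.74 ± 0.07 and 0.83 ± 0.07. Cox4i1, the largest nuclear subunit, had 177.4 and 307.4 CPM in stimulated KO, 306.8 and 182.9 in KO with PBS, 305.0 and 331.3 in stimulated WT and 290.1 and 291.0 in WT with PBS. The libraries of both KO groups split into a low and a high value, so that a change in KO was not detectable (-0.01 ± 0.30, adjusted p = 0.979), and WT gave 0.13 ± 0.30 (adjusted p = 0.768). Cox4i1 shares 154 exon bases with Emc8 on the other strand. Cox7a2l, which joins complexes III and IV into supercomplexes, had 177.7 and 171.4 CPM in stimulated KO, 183.3 and 193.1 in KO with PBS, 145.4 and 175.6 in stimulated WT and 250.2 and 155.6 in WT with PBS. It had no call, with the WT PBS libraries far apart, and without the second of these it was called lower in WT (-0.65, adjusted p = 0.0116).

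Several subunits of complex IV exist as a common isoform and an isoform of muscle or testis. Cox6a2, the heart and skeletal muscle isoform of subunit 6a (ENSMUSG00000030785, chromosome 7, 128205435 to 128206387, minus strand, GRCm38), had the largest rise of all tested members in both genotypes. Its level was 5.19 and 5.46 CPM in stimulated KO, 0.443 and 0.721 in KO with PBS, 12.8 and 14.0 in stimulated WT and 0.307 and 0.677 in WT with PBS. PBS libraries of both genotypes overlapped under 1 CPM, while both stimulated WT libraries lay above both stimulated KO libraries. Cox6a2 rose by 3.19 ± 0.37 in KO (adjusted p = 0.000576) and 4.76 ± 0.39 in WT (adjusted p = 0.000106). The ubiquitous Cox6a1 had 214.6 and 205.2 CPM in stimulated KO, 138.7 and 135.4 in KO with PBS, 190.1 and 217.5 in stimulated WT and 132.7 and 137.3 in WT with PBS, and rose by 0.62 ± 0.08 in KO and 0.59 ± 0.08 in WT. In CPM per kilobase of exon, Cox6a2 stood at a mean of 7.84 in stimulated KO, 0.855 in KO with PBS, 19.7 in stimulated WT and 0.723 in WT with PBS, and Cox6a1 at 299.0, 195.2, 290.3 and 192.3 in the same groups.

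Exons of Cox6a2 share 70 bases with Itgad, an integrin gene on the other strand. The level of Itgad was 0.941 and 0.609 CPM in stimulated KO, 1.41 and 3.68 in KO with PBS, 1.24 and 1.36 in stimulated WT and 3.33 and 4.18 in WT with PBS, and it fell by 1.72 ± 0.47 log2 units in KO (adjusted p = 0.0257) and by 1.53 ± 0.46 in WT (adjusted p = 0.0351). These calls were lost without either stimulated KO or the second KO PBS library in KO (up to 0.135) and without any 1 WT library in WT (up to 0.133). The level of the overlapping gene was lower in every stimulated library, while that of Cox6a2 was higher.

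Cox7a2, the common isoform of subunit 7a, rose by 1.14 ± 0.09 in KO and 0.93 ± 0.09 in WT, while the muscle isoform Cox7a1 stayed at 0.344 to 1.14 CPM in all libraries without a call. Cox6b1 rose by 0.60 ± 0.10 and 0.64 ± 0.10. Cox6b2, the testis isoform, had 0 and 22 counts in stimulated KO, 38 and 16 in KO with PBS, 0 and 0 in stimulated WT and 36 and 28 in WT with PBS. It was the member that fell in WT, where it was at least 18.3-fold lower in stimulated cells with the empty group set to a floor of 3 counts in all (adjusted p = 0.0472). That call was lost in 6 of the 8 fits that left out 1 library (adjusted p up to 0.135), without either KO PBS, either stimulated WT or either WT PBS library. Cox8a rose by 0.51 ± 0.11 in KO, not called without the first stimulated or the first PBS library of KO (adjusted p up to 0.0591), and by 0.55 ± 0.11 in WT, and its muscle and testis relatives Cox8b and Cox8c had no counts.

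In complex V 14 of 17 tested members rose in KO and 13 in WT, with medians of 0.55 and 0.49. All 5 subunits of the catalytic F1 head rose in both genotypes. Atp5b, the catalytic beta subunit, had 677.9 and 669.8 CPM in stimulated KO, 323.9 and 340.8 in KO with PBS, 720.5 and 781.2 in stimulated WT and 348.1 and 356.5 in WT with PBS. It rose by 1.02 ± 0.06 in KO (adjusted p = 3.28e-05) and 1.09 ± 0.06 in WT (adjusted p = 2.39e-05). Atp5a1, the alpha subunit that alternates with beta in the head, had 502.0 and 503.5 CPM in stimulated KO, 364.5 and 375.2 in KO with PBS, 500.2 and 543.8 in stimulated WT and 371.7 and 374.0 in WT with PBS. Both genes were separated by treatment, and Atp5a1 rose by 0.44 ± 0.06 in KO and 0.49 ± 0.06 in WT. The gamma, delta and epsilon subunits Atp5c1, Atp5d and Atp5e rose by 0.63 ± 0.09, 0.60 ± 0.09 and 0.55 ± 0.10 in KO and by 0.70 ± 0.09, 0.45 ± 0.09 and 0.52 ± 0.10 in WT, with Atp5d not called in WT without the first WT PBS library (adjusted p = 0.0593). Atp5o, the OSCP subunit that ties the head to the stalk, rose by 1.11 ± 0.09 and 1.15 ± 0.09.

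The Atp5g1, Atp5g2 and Atp5g3 genes encode the identical subunit c of the rotor ring, with different import sequences. Atp5g1 had 59.6 and 66.8 CPM in stimulated KO, 42.6 and 39.7 in KO with PBS, 71.3 and 84.5 in stimulated WT and 42.8 and 45.5 in WT with PBS. Atp5g3 had 137.5 and 135.8 CPM in stimulated KO, 73.2 and 72.9 in KO with PBS, 123.4 and 152.6 in stimulated WT and 72.5 and 79.8 in WT with PBS. Atp5g2 had 113.8 and 111.1 CPM in stimulated KO, 121.1 and 124.9 in KO with PBS, 106.3 and 122.8 in stimulated WT and 104.6 and 113.8 in WT with PBS. Atp5g1 and Atp5g3 were separated by treatment and rose, by 0.62 ± 0.11 and 0.90 ± 0.11 in KO and by 0.82 ± 0.11 and 0.86 ± 0.11 in WT, while Atp5g2 had a fold change of -0.13 ± 0.09 in KO (adjusted p = 0.296) and 0.07 ± 0.09 in WT (adjusted p = 0.582). In CPM per kilobase of exon the mean level of Atp5g2 was 67.1 in stimulated KO, 73.4 in KO with PBS, 68.4 in stimulated WT and 65.2 in WT with PBS, and that of Atp5g3 was 62.6, 33.5, 63.3 and 34.9. Of the peripheral stalk, Atp5f1 rose by 0.49 ± 0.09 in KO and 0.51 ± 0.09 in WT. Atp5j rose in KO (0.81 ± 0.21, adjusted p = 0.0192) and not past the threshold in WT (0.34 ± 0.21, adjusted p = 0.228), and shares 397 exon bases with Gabpa. Its call was lost without the second stimulated or the second PBS library of KO (up to 0.106).

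**Figure D2:**
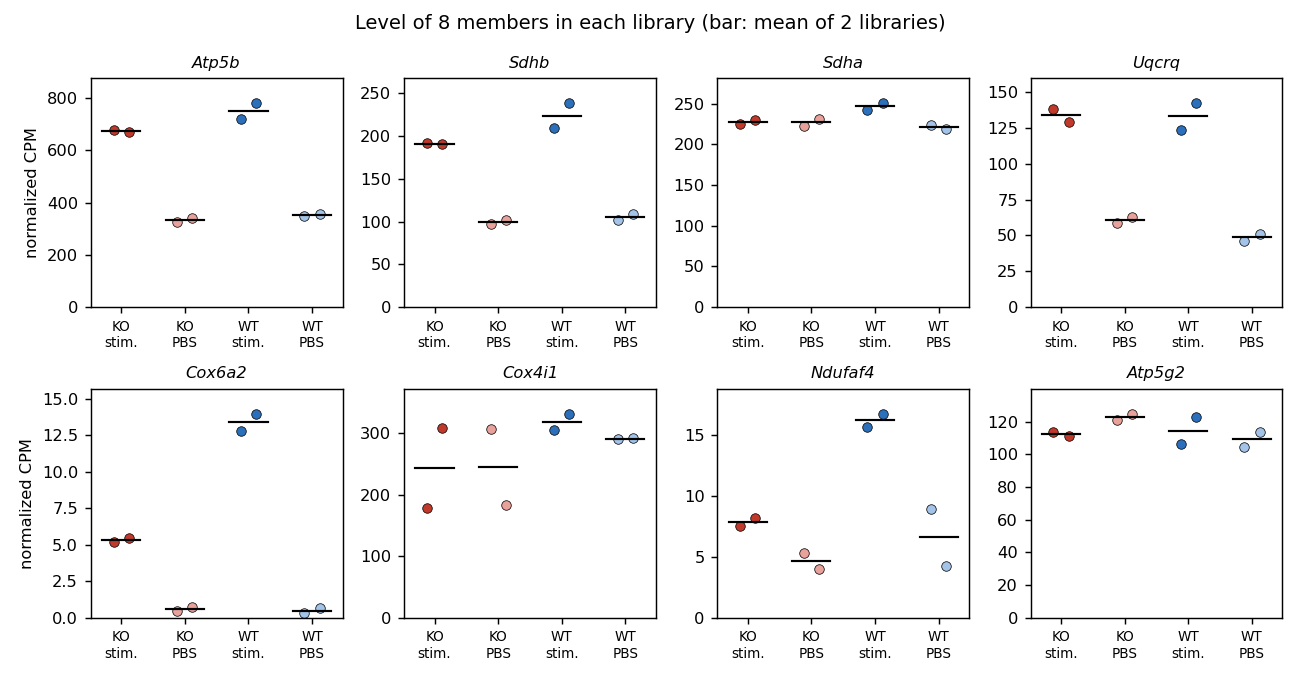
Level in normalized CPM of 8 members in each library, with 2 points and their mean (bar) per group, in the order stimulated KO, KO with PBS, stimulated WT, WT with PBS. Atp5b, Sdhb, Uqcrq and Cox6a2 are higher in every stimulated library, Sdha and Atp5g2 are nearly level, and the KO libraries of Cox4i1 are split.

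The responses in the genotypes were compared across members. Of the risen members, 60 were shared, which is 90.9% of the 66 in KO and 96.8% of the 62 in WT. The shared fraction over all tested genes was not computed, so this sharing cannot be called particular to the members. The 6 called in KO alone were Ndufa5, Ndufa7, Ndufb2, Ndufv1, Ndufaf7 and Atp5j, and the 2 called in WT alone were Ndufa1 and Ndufaf4. The test of the difference of responses called none of these 8, and Ndufa1 lost its call in all 8 fits that left out 1 library (adjusted p up to 0.225). A further 23 had no call in either. Across the 84 members with a group mean of at least 5 CPM, the log2 fold changes of KO and WT, which share no library, had a Pearson r of 0.904 and a Spearman rho of 0.826. Without Cox6a2 these were 0.84 and 0.819 over 83 members. Members within a library share its depth and scaling, so these coefficients are descriptions.

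**Figure D3:**
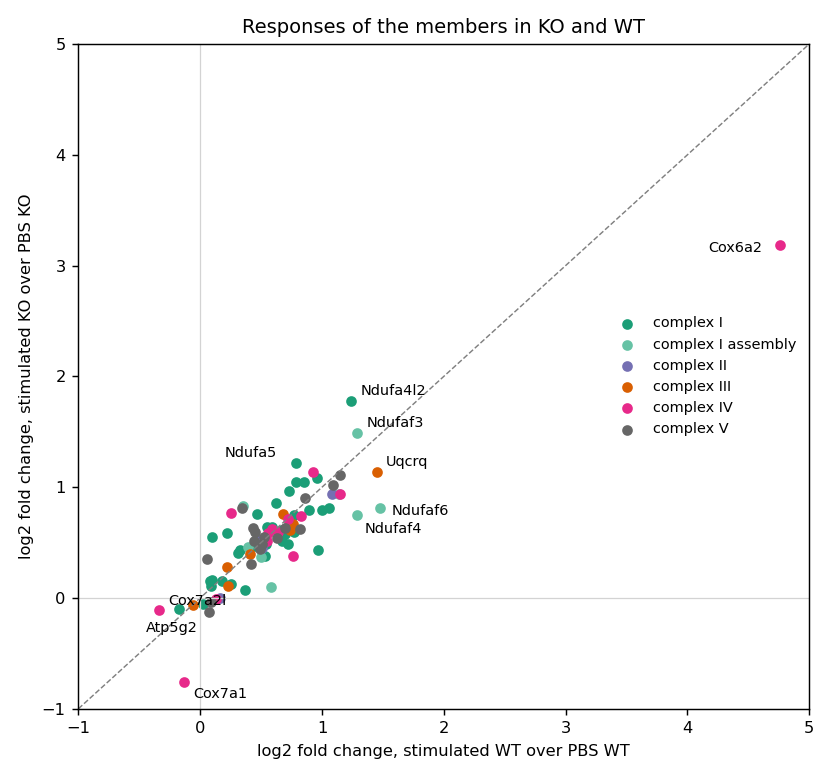
Log2 fold change of stimulated over PBS libraries in KO (vertical axis) against WT (horizontal axis) for the tested members except Cox6b2, coloured by complex, with the line of equal response dashed. Most members lie above 0 on both axes and near the line, and Cox6a2 lies at 4.76 in WT and 3.19 in KO.

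Whether loss of Mettl3 changed these genes was then examined. With PBS, 0 of the 92 members were called between KO and WT by edgeR, where 1.55% of all genes were called, 1.2% higher and 0.355% lower. At an unadjusted p under 0.05, 4 members were higher and 5 lower, where 1517 and 1173 of all 17470 tested genes were. The median of the members was 0.00. DESeq2 and limma-voom also called 0, where they called 5.44% and 1.87% of all genes with an adjusted p. Among the 84 members with a group mean of at least 5 CPM the log2 differences ran from -0.50 (Atp5j) to 0.43 (Ndufaf1), with a median standard error of 0.10. After stimulation again 0 of 92 were called, where 4.92% of all genes were, 2.91% higher and 2.01% lower, and the median was -0.02. At an unadjusted p under 0.05, 5 members were higher and 6 lower, where 1860 and 1610 of all 17470 genes were. DESeq2 called 3 members here and limma-voom 1, where they called 9.66% and 5.39% of all genes. In the test of the difference between the responses, 0 members were called, where 0.498% of all genes were, 0.103% higher and 0.395% lower. The median was -0.03, and unadjusted 1 member was higher and 1 lower, where 839 and 1033 of all 17470 genes were. DESeq2 and limma-voom called 0 members in that test, where they called 2.84% and 0.481% of all genes. Of the 84 members, 82 differed by less than 0.5 log2 units between stimulated KO and stimulated WT.

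The exceptions in size were Cox6a2 and Ndufaf4. Between stimulated KO and stimulated WT, Cox6a2 differed by -1.33 ± 0.32 (adjusted p = 0.0728), and the difference of its responses was -1.57 ± 0.50 (adjusted p = 0.307). Both stimulated KO libraries lay below both stimulated WT libraries. It was called in DESeq2 (adjusted p = 0.002), in limma-voom (0.00535), with only the groups compared (0.0192) and without either WT PBS library, over a range of 0.002 to 0.287. Ndufaf4 differed by -1.04 ± 0.33 (adjusted p = 0.138) and was called lower in DESeq2 (0.0301), with only the groups compared (0.0261) and without either WT PBS library, over a range of 0.0261 to 0.409. Ndufaf1, a core factor in assembling the membrane arm, had 15.5 and 13.6 CPM in stimulated KO, 10.4 and 10.7 in KO with PBS, 9.91 and 10.7 in stimulated WT and 7.43 and 8.29 in WT with PBS. KO libraries lay above WT libraries of the same treatment, by 0.50 ± 0.12 after stimulation (adjusted p = 0.0753) and 0.43 ± 0.12 with PBS (adjusted p = 0.174). DESeq2 and the library-size scaling called it after stimulation (0.0309 and 0.0241), over a range of 0.0241 to 0.333.

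The 13 mRNAs of the mitochondrial genome encode further subunits of complexes I, III, IV and V and did not follow the nuclear members. In KO 9 of the 13 fell with stimulation and 0 rose, with a median of -0.96. Over all tested genes 19.0% were lower in KO and 20% in WT, and the 2 lower in WT, named next, lie near that share. In WT 2 fell, mt-Cytb and mt-Nd4, with a median of 0.05, and mt-Nd4 lost its call without any 1 WT library (adjusted p up to 0.126). With PBS 0 of the 13 were called between KO and WT by edgeR, DESeq2 or limma-voom, nor at an unadjusted p under 0.05. mt-Cytb, the cytochrome b of complex III, had 966.6 and 926.4 CPM in stimulated KO, 2424.6 and 2325.3 in KO with PBS, 1731.0 and 1928.4 in stimulated WT and 2330.3 and 2409.0 in WT with PBS. Its stimulated libraries lay below its PBS libraries in both genotypes, lowest in KO, with fold changes of -1.33 ± 0.07 in KO (adjusted p = 1.42e-05) and -0.37 ± 0.07 in WT (adjusted p = 0.00491). mt-Nd6, a membrane subunit of complex I, had 290.9 and 275.0 CPM in stimulated KO, 559.9 and 547.2 in KO with PBS, 496.9 and 529.5 in stimulated WT and 534.9 and 555.4 in WT with PBS, with -0.97 ± 0.06 in KO (adjusted p = 3.92e-05) and -0.09 ± 0.06 in WT (adjusted p = 0.32).

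Between stimulated KO and stimulated WT 6 of the 13 were lower and 0 higher, against 2.01% of all genes called lower, and the median was -0.86. In the test of the difference between responses 4 were called lower, against 0.395% of all genes: mt-Nd2, mt-Nd5, mt-Nd6 and mt-Cytb, at -0.86 ± 0.11, -0.79 ± 0.09, -0.88 ± 0.09 and -0.95 ± 0.10, with adjusted p = 0.0357, 0.0203, 0.0161 and 0.0161. None of the 13 was called in that test in 6 of the 8 fits that left out 1 library, those without either stimulated KO, either KO PBS or either WT PBS library. In the comparison of stimulated KO and stimulated WT 5 to 9 were called lower in each of the 8 fits. The summed level of the 13 was 21757.7 and 16474.2 CPM in stimulated KO, 27082.4 and 31167.0 in KO with PBS, 27031.7 and 31693.3 in stimulated WT and 27215.5 and 28413.6 in WT with PBS. Both stimulated KO libraries lay below all others. mt-Atp6 differed widely within groups, with 547.0 and 249.1 CPM in stimulated KO, 430.8 and 2414.9 in KO with PBS, 577.1 and 2955.3 in stimulated WT and 490.6 and 1847.6 in WT with PBS. Nuclear copies of mitochondrial genes could share these counts.

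**Figure D4:**
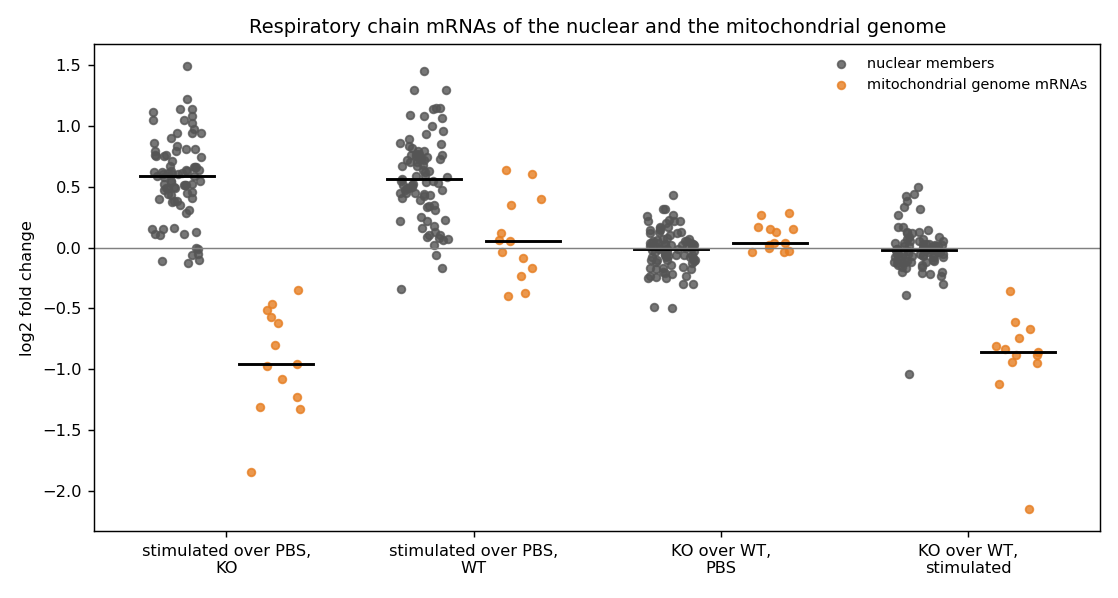
Log2 fold change of nuclear members with a group mean of at least 5 CPM (grey, Cox6a2 left out) and of the 13 mRNAs of the mitochondrial genome (orange) in 4 comparisons, with medians as bars. Grey points lie mostly above 0 in both stimulation comparisons, and orange points have medians of -0.96 for stimulation in KO and -0.86 for stimulated KO over stimulated WT.

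Genes that work with the chain were read from companion lists, to be set beside the 20.2% of all genes higher and 19.0% lower in KO and the 20.6% higher and 20% lower in WT. Of 8 electron carriers and feeders, 4 rose and 1 fell in KO and 6 rose and 1 fell in WT. Cycs, the cytochrome c that links complexes III and IV, had 129.1 and 135.0 CPM in stimulated KO, 32.3 and 35.0 in KO with PBS, 132.8 and 153.1 in stimulated WT and 38.6 and 38.2 in WT with PBS, and rose by 1.97 ± 0.09 and 1.90 ± 0.09 (adjusted p = 8.46e-06 and 9.99e-06). Every stimulated library lay far above every PBS library. Cyc1 rose by 1.15 ± 0.09 in KO and 0.90 ± 0.09 in WT. Gpd2, which feeds electrons from glycerol-3-phosphate to ubiquinone, rose by 1.63 ± 0.23 and 1.77 ± 0.23. Etfdh, which feeds in electrons from fatty acid oxidation, fell by 0.71 ± 0.08 and 0.77 ± 0.08.

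Of 41 assembly factors outside the symbol rule, 18 rose and 1 fell in KO and 15 rose and 0 fell in WT, with medians of 0.39 and 0.33. Examples of the rise were Sdhaf1, which helps to mature the iron-sulfur subunit of complex II (1.41 ± 0.12 in KO, 1.09 ± 0.12 in WT), Uqcc2 of complex III (1.26 ± 0.09 and 1.08 ± 0.09) and Ecsit of complex I (1.21 ± 0.17 and 1.65 ± 0.17). Of 17 genes of the tricarboxylic acid cycle and pyruvate dehydrogenase, 10 rose and 1 fell in each genotype, with Mdh2, the malate dehydrogenase, up by 1.48 ± 0.08 in KO and 1.34 ± 0.08 in WT. The gene called lower in KO was Idh3g, at -0.28 ± 0.08 in KO and -0.10 ± 0.08 in WT, and its call was lost in 6 of the 8 fits that left out 1 library (adjusted p up to 0.189), without any 1 KO or WT PBS library. The gene called lower in WT was Ogdh, at 0.02 ± 0.06 in KO and -0.29 ± 0.06 in WT (adjusted p = 0.0558 without the second WT PBS library). The difference of responses passed for neither Idh3g (-0.18 ± 0.12, adjusted p = 0.648) nor Ogdh (0.31 ± 0.09, adjusted p = 0.244). Of 78 mitochondrial ribosomal proteins, 49 rose and 0 fell in KO and 51 rose and 1 fell in WT, with medians of 0.48 and 0.51. Of 21 genes of mitochondrial membranes and import, 12 rose and 2 fell in KO and 10 rose and 2 fell in WT.

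Among 14 tested regulators of mitochondrial biogenesis, 4 rose and 7 fell in KO and 4 rose and 4 fell in WT. With 14 genes, these counts in WT lie near the shares of 20.6% higher and 20% lower over all genes. Ppargc1b, a coactivator of respiratory genes, had 7.69 and 9.45 CPM in stimulated KO, 2.71 and 3.12 in KO with PBS, 11.5 and 8.98 in stimulated WT and 2.35 and 2.21 in WT with PBS, and rose by 1.56 ± 0.19 and 2.17 ± 0.19. Esrra, the nuclear receptor it acts on, rose by 1.2 ± 0.08 in KO and 1.02 ± 0.08 in WT. Both were separated by treatment in each genotype. Of the factors whose letters were searched in the promoters, Nrf1 was at -0.19 ± 0.11 in KO and 0.13 ± 0.11 in WT without a call, Yy1 fell by 0.45 ± 0.07 and 0.43 ± 0.07, and Gabpa fell by 0.30 ± 0.07 in KO (adjusted p = 0.0159, up to 0.106 without either stimulated KO or the second KO PBS library) and was at -0.21 ± 0.07 in WT (adjusted p = 0.0577). Myc fell by 1.42 ± 0.18 in KO and 1.84 ± 0.19 in WT. Between stimulated KO and stimulated WT the carriers, the assembly factors and the regulators held 0 calls by edgeR. At an unadjusted p under 0.05 they held 0 higher and 1 lower, 5 higher and 3 lower, and 2 higher and 1 lower. Of all 17470 tested genes, 1860 were higher and 1610 lower at that threshold.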

How the data were processed

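RNA-seq counts per gene for 8 libraries of bone marrow-derived macrophages were used as deposited by the authors. The submitters' processing notes name the mouse build mm10 and list Bowtie2, Trimmomatic and edgeR, with no version. How reads were counted, with which annotation and whether by strand, is not given in the sources used here, so reads of genes that overlap on opposite strands cannot be told apart. Symbols, exon lengths and positions came from GENCODE M21 (GRCm38), promoter windows from RefSeq (GRCm38.p6).

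Genes were kept by filterByExpr (minimum count 10, minimum total 15), which left 17470. A single model of the 4 groups took in the 8 libraries, leaving 4 residual degrees of freedom, and was tested by edgeR's quasi-likelihood F test (edgeR 4.0.16, R 4.3.3) with TMM factors (0.8876 to 1.068) and Benjamini-Hochberg adjustment over all tested genes per comparison, called at 0.05. All adjusted p-values in the text are from this test unless another tool is named. Standard errors (SE, 2 libraries per group) are the size of the unshrunk log2 fold change divided by the square root of F, and the biological coefficient of variation was 0.2151. Levels are CPM scaled by TMM. With 2 libraries against 2, an exact two-sided permutation test cannot go below 0.33, so summed levels were not tested. The fit was also run on simulated data, and no result given here rests on that run. Libraries of a group differed beyond sampling noise (chi-square per degree of freedom 40.36 to 84.09), so none was treated as a copy of another. This spread can also arise between technical preparations.

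Members, companion lists and markers were chosen with earlier results of these data known. Named members were the 3 called with the largest rise and fall per complex and comparison, isoform pairs, the most abundant per complex and those called between genotypes. Companion genes were the up to 4 called with the smallest adjusted p per list and comparison. Others are named for contrast after their values were seen. Alternatives were DESeq2's size factors in edgeR, library size alone, DESeq2 1.42.0, limma-voom (limma 3.58.1), no low-count filter, a 5 CPM minimum in 2 libraries (its share of all genes called was added after seeing the data), a fit of only the groups compared, a block for the replicate number, and leaving out every library in turn. Plots were made in matplotlib 3.10.9. Some genes are not reported here.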

Additional observations from a re-analysis of the deposited data

How the results depend on the processing

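The members that rose numbered 51 to 67 in KO and 50 to 63 in WT over the 8 fits that left out 1 library, and 64 to 69 and 54 to 65 in the other settings, with 47 kept in all 8 in each genotype. Library size alone moved the median of all genes to -0.11 in KO, -0.20 in WT and 0.13 between stimulated KO and stimulated WT. The members' median was then 0.51 in KO, 0.37 in WT, 0.12 between the genotypes after stimulation and 0.08 for the difference of responses, and relative to all genes 0.62 in KO and 0.57 in WT, as in the reported scaling. A change of scaling moves all genes of a comparison alike, so these relative values had to stay nearly the same and are no check. That setting called 2 lower in WT (Ndufb11 and Cox6b2) and 4 higher in stimulated KO than in stimulated WT (Ndufb2, Ndufb3, Ndufaf1 and Uqcrfs1), and 45.5% of called genes were higher in KO and 36.5% in WT, in place of 51.6 and 50.7%. Between stimulated KO and stimulated WT 81.6% were higher in place of 59.1%. Between stimulated KO and stimulated WT, DESeq2 called 1 higher and 2 lower, limma-voom 1 lower and the fit of only the groups compared 2 lower. The count lower in WT was 0 with limma-voom and 0 with the replicate block, which called 67 higher in KO and 65 in WT. Deviations of same-numbered libraries from their group means had r from -0.015 to 0.101. These coefficients cannot show whether libraries of the same number share an animal, culture or batch. With 1 library left out, the count lower was 0 to 1 in KO (Cox6b2 without the second stimulated KO library) and 0 to 1 in WT, and 0 to 2 between the genotypes after stimulation. Medians then were 0.44 to 0.68 in WT, -0.13 to 0.09 between the genotypes after stimulation and -0.11 to 0.11 for the difference of responses, where the ends of all 3 ranges came from leaving out a stimulated WT library. Summed per kilobase of exon, the log2 ratio of stimulated over PBS in KO was 0.52 for complex I, 0.50 for complex II and 0.59 for complex V, and that of KO over WT with PBS 0.13 for the assembly factors and 0.11 for complex III. The cause of these shifts was not tested. Of 3016 values of named genes under the alternatives, 2891 kept direction and side of the threshold, 116 lost the call, 9 gained it and 0 reversed. Depth limits the 4 members that averaged under 1 CPM.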

Other observations

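Some mitochondrial genes outside the respiratory chain were called between the genotypes. Ogdh, the E1 subunit of the 2-oxoglutarate dehydrogenase complex, had 248.5 and 257.7 CPM in stimulated KO against 156.9 and 159.0 in stimulated WT, and 244.0 and 256.7 in KO with PBS against 189.4 and 197.4 in WT with PBS. It was higher in KO by 0.68 ± 0.06 log2 units after stimulation (adjusted p = 0.0034) and by 0.37 ± 0.06 with PBS (adjusted p = 0.0404), where the call was lost in all 8 fits that left out 1 library (adjusted p up to 0.223). Of the 78 mitochondrial ribosomal proteins 5 were higher and 0 lower in stimulated KO than in stimulated WT, where 2.91% of all genes were higher. With 1 library left out, Mrpl16, Mrps2 and Mrps7 lost the call in all 8 fits (adjusted p up to 0.23), while Mrpl43 and Mrpl46 lost it without either stimulated KO library, and Mrpl46 also without the first stimulated WT library (up to 0.0856). With PBS 3 of the 78 were higher and 0 lower in KO than in WT, where 1.2% of all genes were higher: Mrpl43 and Mrpl46, which lost the call in 6 of the 8 fits that left out 1 library, without either library of stimulated KO, KO with PBS or WT with PBS, and Mrps2, which lost it in all 8 (adjusted p up to 0.204). Hspa9, the mitochondrial Hsp70 that drives protein import, had 267.9 and 270.1 CPM in stimulated KO, against 382.3 and 404.6 in stimulated WT. Hspa9 was lower in KO by a log2 fold change of -0.55 ± 0.06 after stimulation (adjusted p = 0.00621), a call lost without either stimulated KO library. It was the 1 gene called of 21 for mitochondrial membranes and import, and Ogdh the 1 of 17 of the tricarboxylic acid cycle and pyruvate dehydrogenase. In lists of this length, 1 call lies near the 4.92% of all genes called after stimulation. With PBS, where Ogdh was again the 1 of 17, 1.55% of all genes were called.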
